A study of Aspergillus nidulans with 12 samples.

Results

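Transcript levels of 5 genes of folate-dependent one-carbon metabolism were followed in *Aspergillus nidulans*, a filamentous ascomycete. The genes were AN2998, AN1198, AN0495, AN5738 and AN7028. They were taken by gene ID from the 10988 genes of the deposited table, and all 5 passed the filter on low counts. Submerged cultures of the reference strain THS30 (pyrG89; AfupyrG+; pyroA4; pyroA+) and of the ΔatfA mutant TNJ92 (pyrG89; AfupyrG+; pyroA4; ΔatfA::pyroA) were compared, either untreated or after 0.5 h with 0.2 mM CdCl2. AtfA is a stress-related bZIP transcription factor, and the mutant is represented by a single deletion strain. Both strains share the pyrG89 and pyroA4 alleles and the AfupyrG+ marker. All cultures had first grown for 16 h at 37 °C, and 3 biological replicates of each of the 4 groups gave 12 RNA-seq libraries.

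Tetrahydrofolate carries single carbon units that are taken mainly from serine and glycine and are interconverted between the methylene, methenyl, formyl and methyl forms. The methylene form is used to make thymidylate and, after reduction to the methyl form, methionine. The formyl form is used in purine synthesis and, in mitochondria, to formylate the initiator methionyl-tRNA. Among the genes studied here, AN1198 is annotated as a putative aminomethyltransferase, the folate-binding component of the mitochondrial glycine cleavage system, which yields methylene-tetrahydrofolate. AN2998 is a putative multifunctional enzyme of one-carbon metabolism. The product of AN0495 has a formyltetrahydrofolate deformylase domain, and in bacteria such deformylases release formate and free tetrahydrofolate. AN5738 is an ortholog of methionyl-tRNA formyltransferases and uses the formyl group. AN7028 encodes a putative thymidylate synthase, which uses the methylene group and leaves dihydrofolate. In the RefSeq assembly ASM1142v1, AN0495 and AN1198 lie on chromosome VIII, AN2998 on VI, AN5738 on V and AN7028 on IV.

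The libraries held between 8721119 and 13641031 counts, and 9070 genes were tested. Counts of the 5 genes lay between 195 and 5642 per library, so that none was near the limit of detection. The deleted gene, atfA (AN2911), had 2690 to 3907 counts in the THS30 libraries and 233 to 347 in the TNJ92 libraries. It was thus lower in each TNJ92 library than in any THS30 library (−3.63 ± 0.12 in untreated cultures), but reads remained in the mutant, at 26.7 ± 0.684 CPM untreated, close to the level of AN5738 in untreated THS30. Where in the gene these reads lie was not analysed here. In THS30, 1 treated library stood apart from its group in its distance to the untreated mean. Among the 3986 genes called in the CdCl2 response of THS30, treated replicate 3 was the treated library closest to the untreated mean for 69.6%, against 15.2% for each of the other two. It was also the closest for 5 of the 5 genes studied here, and the results of the 5 genes that rest on it, as well as any call on the folate cycle list that changes, are given below also without it. Replicates of a group were also compared in pairs over all genes, as chi-square per degree of freedom (higher means less alike). Treated THS30 replicates 1 and 2 were unusually alike, at 3.72. Their values with replicate 3, 22.1 and 16.4, lay within the 9.18 to 27.8 of the other groups. In their distance to the untreated mean the treated TNJ92 libraries were more even. Replicate 3 was the closest there for 44.8% of 5122 called genes and for 3 of the 5 genes. Levels are given as TMM-scaled CPM (counts scaled to a common library size), and differences as log2 fold changes ± SE with p-values adjusted over all genes tested (edgeR, 0.05). Only relative levels in whole mycelium were measured, so that a change per cell and a change in the share of cells that express a gene cannot be told apart.

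After CdCl2 treatment AN0495 rose and AN2998 and AN1198 fell in both strains, by 2.36 to 4.87 times. AN7028 and AN5738 rose in THS30 by less, 1.43 and 1.35 times, and their differences in TNJ92 were not called. In the CdCl2 response of THS30, 3 of the 5 genes were called higher and 2 lower, beside 22.5% of all tested genes called higher and 21.5% called lower. In the response of TNJ92, 1 gene was called higher and 2 lower, beside 28.3% and 28.2% of all genes. The balance of these backgrounds depended on the scaling. With library totals in place of TMM, 2776 genes were called higher and 1347 lower in THS30 (2038 and 1948 with TMM), and 3306 higher and 1833 lower in TNJ92 (2568 and 2554 with TMM). In untreated cultures 3 of the 5 genes were called higher in TNJ92 than in THS30 and 0 lower, beside 32% and 29.6% of all genes. In treated cultures 2 were called higher in the mutant and 1 lower, beside 27.8% of all genes in each direction. The difference between the CdCl2 responses of the strains was called positive for 1 gene and negative for 2, beside 13.2% and 13.6% of all genes.

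**Figure D1:**
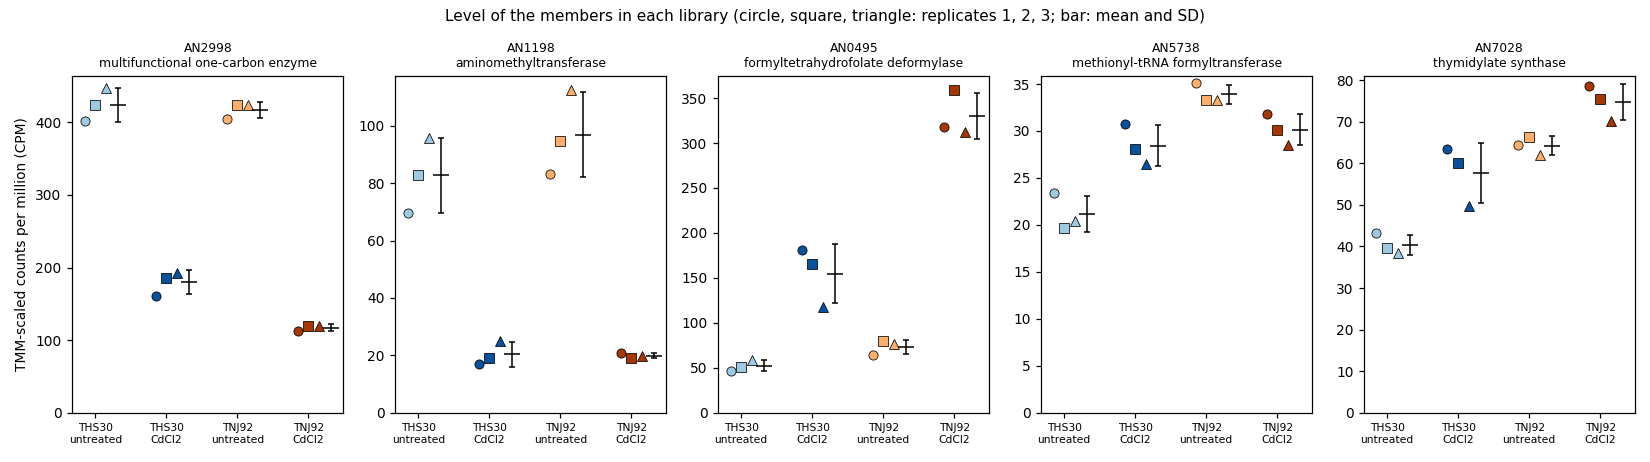
Level of the 5 genes in each library, with TMM-scaled CPM on a separate linear axis from 0 for each gene and the 4 groups along the bottom. Circles, squares and triangles are replicates 1, 2 and 3, and bars are mean and SD (n = 3); the treated libraries of AN0495 lie above, and those of AN2998 and AN1198 below, all untreated ones, with AN0495 at 118 CPM in THS30 treated replicate 3 and 181 CPM in replicate 1.

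AN2998, the multifunctional enzyme gene, was the highest of the 5 per transcript length in untreated cultures, and it fell in both strains. In THS30 it had 401, 424 and 447 CPM without CdCl2 and 161, 185 and 193 CPM with it. In TNJ92 the values were 404, 424 and 423 CPM without CdCl2 and 112, 119.8 and 120.04 CPM with it. Each treated library thus lay below each untreated one, and the treated libraries of the 2 strains did not overlap. The decrease was −1.24 ± 0.09 in THS30 (2.36-fold, adjusted p = 3.36e-08) and −1.83 ± 0.09 in TNJ92 (3.56-fold). Before treatment the strains were nearly level, at 424 ± 23.02 CPM in THS30 and 417 ± 11.1 CPM in TNJ92 (SD, n = 3), and their difference of −0.02 ± 0.08 was not called (adjusted p = 0.817). After treatment AN2998 was lower in the mutant by a log2 difference of −0.62 ± 0.09. The responses themselves differed by −0.59 ± 0.12 (adjusted p = 0.00156), and by −0.50 ± 0.11 without THS30 treated replicate 3 (adjusted p = 0.0039). Without that library the response of THS30 was −1.35 ± 0.09 and the strain difference after treatment −0.54 ± 0.08. AN2998 therefore fell further in TNJ92 than in THS30, from levels that did not differ beyond their spread before treatment.

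AN1198, the aminomethyltransferase gene, had the lowest log2 fold change of the 5 genes in both strains. Its level in THS30 was 69.7, 82.8 and 95.8 CPM in untreated and 16.9, 18.9 and 25.0 CPM in treated replicates. TNJ92 had 83.4, 94.7 and 113 CPM untreated and 20.7, 19 and 19.9 CPM treated. The untreated replicates of each strain spread widely, with SDs of 13.03 and 14.7 CPM, but no treated library came near them. In THS30 the response was −2.03 ± 0.15 (4.09-fold, adjusted p = 1.21e-07), and only 30 of the 9070 genes had a lower log2 fold change. In TNJ92 it was −2.28 ± 0.15 (4.87-fold), with 35 genes lower. The strains overlapped both before treatment (0.23 ± 0.14, adjusted p = 0.172) and after it (−0.03 ± 0.16), and neither difference was called. Nor was a difference between the responses called, at −0.25 ± 0.21. Without THS30 treated replicate 3, which was the highest treated THS30 library at 25.0 CPM, the THS30 response was −2.26 ± 0.15, the strain difference after treatment 0.17 ± 0.15 and the difference between the responses −0.04 ± 0.20. Only the first of these was called.

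AN0495, whose product has a formyltetrahydrofolate deformylase domain, rose in both strains. It was the only one of the 5 called higher in both, apart from the alternatives that called AN7028 in TNJ92. THS30 had 46.7, 51.4 and 58.9 CPM in untreated replicates and 181, 166 and 118 CPM in treated ones. TNJ92 had 63.7, 79.4 and 76.1 CPM untreated and 317, 359 and 313 CPM treated. No 2 groups overlapped, and their order was untreated THS30, untreated TNJ92, treated THS30 and treated TNJ92. The increase was 1.56 ± 0.14 in THS30 (2.95-fold, adjusted p = 9.42e-07) and 2.17 ± 0.14 in TNJ92 (4.51-fold). AN0495 was higher in the mutant before treatment by 0.48 ± 0.14 (adjusted p = 0.00833) and after it by 1.09 ± 0.14. The responses differed by 0.61 ± 0.20 (adjusted p = 0.0312). This last call was the least stable for the gene, with an adjusted p of 0.0566 without THS30 untreated replicate 2, 0.0855 without THS30 untreated replicate 3, 0.0732 without TNJ92 untreated replicate 1 and 0.0793 without TNJ92 treated replicate 2. Without THS30 treated replicate 3, the lowest treated library, the increase in THS30 was 1.67 ± 0.11, the strain difference after treatment 0.95 ± 0.11 and the difference between the responses 0.49 ± 0.15 (adjusted p = 0.0237). In the RefSeq annotation AN0495 overlaps its neighbour AN10097, and whether reads were counted by strand is not stated in the sources used here, so that some reads may be shared. AN10097 itself was called lower with CdCl2 in both strains, at −0.62 ± 0.14 in THS30 and −0.56 ± 0.14 in TNJ92.

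AN5738, the methionyl-tRNA formyltransferase ortholog, had the lowest level of the 5 genes in CPM in untreated cultures. The THS30 replicates had 23.4, 19.7 and 20.4 CPM untreated and 30.8, 28.1 and 26.5 CPM treated. The TNJ92 replicates had 35.1, 33.3 and 33.3 CPM untreated and 31.8, 30.1 and 28.5 CPM treated. The treated THS30 libraries were all above the untreated ones, whereas the treated TNJ92 libraries were all below the untreated ones. The response of THS30 was 0.43 ± 0.10 (1.35-fold, adjusted p = 0.0031), while that of TNJ92, −0.17 ± 0.10, was not called (adjusted p = 0.163). The strains differed before treatment, by 0.68 ± 0.10 with TNJ92 higher, and this difference was 0.08 ± 0.10 and not called after it. The responses differed by −0.60 ± 0.14 (adjusted p = 0.00552), and by −0.61 ± 0.15 without THS30 treated replicate 3. Without it the response of THS30 was 0.42 ± 0.11 and the strain difference after treatment 0.06 ± 0.11, with the same calls. Untreated TNJ92 was the group with the highest mean, and both treated groups overlapped. AN5738 overlaps AN5737 in the RefSeq annotation. AN5737 was lower with CdCl2 in both strains (−0.91 ± 0.13 and −0.71 ± 0.13) and lower in the mutant (−1.14 ± 0.13 untreated), and thus ran opposite to AN5738 in the THS30 response and in the untreated strain comparison. The part of shared reads in either gene was not tested.

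AN7028, the thymidylate synthase gene, was higher in the mutant under both conditions. In untreated cultures it had 43.1, 39.6 and 38.5 CPM in THS30 and 64.4, 66.4 and 61.9 CPM in TNJ92. In treated cultures it had 63.5, 60.2 and 49.6 CPM in THS30 and 78.7, 75.4 and 70.2 CPM in TNJ92. The treated THS30 libraries were all above the untreated ones and overlapped the untreated TNJ92 libraries. The gene rose by 0.52 ± 0.10 in THS30 (1.43-fold, adjusted p = 0.000479). In TNJ92 the difference was 0.22 ± 0.10 and was not called (adjusted p = 0.0604), although the treated and untreated libraries did not overlap. Some alternatives called it, among them library totals (0.37, adjusted p = 0.00812) and the fit without THS30 treated replicate 3 (0.20, adjusted p = 0.0407). The strains differed by 0.67 ± 0.10 before and 0.37 ± 0.10 after treatment (adjusted p = 0.00351). The difference between the responses, −0.30 ± 0.14, was not called (adjusted p = 0.121), but it was −0.36 ± 0.12 and called without THS30 treated replicate 3 (adjusted p = 0.0402). Without it the response of THS30 was 0.56 ± 0.09 and the strain difference after treatment 0.29 ± 0.09, both called. In the fits that left out 1 library, the difference between the responses of AN7028 lay between −0.36 and −0.23. Whether it was called thus rested on THS30 treated replicate 3, while its sign did not.

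**Figure D2:**
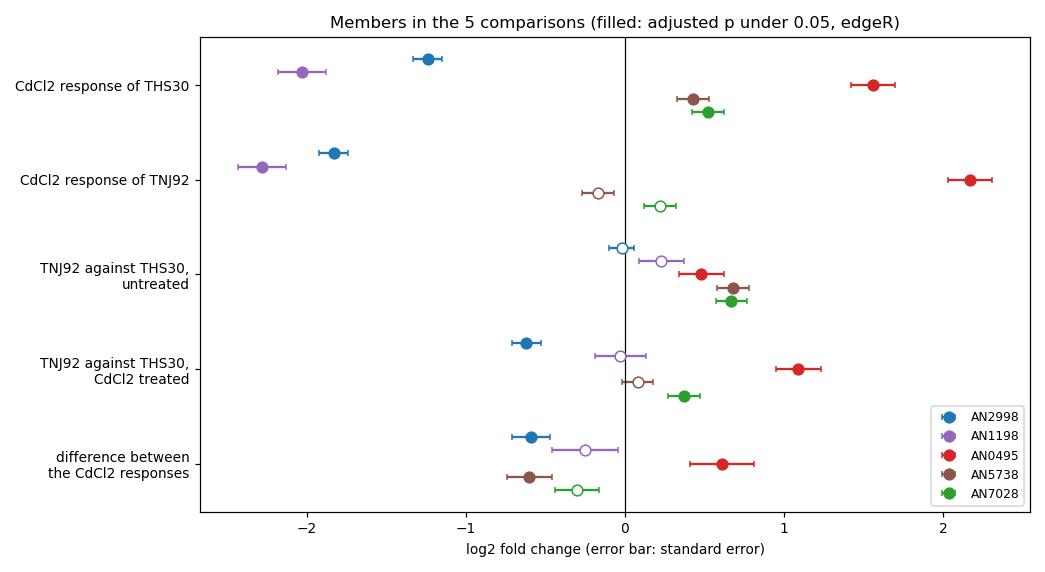
Log2 fold changes (points) with SE (bars) of the 5 genes in the CdCl2 response of each strain, the strain difference in untreated and treated cultures, and the difference between the responses; filled points had an adjusted p under 0.05. AN0495 lies at 1.56 and 2.17 in the responses, opposite AN2998 (−1.24 and −1.83) and AN1198 (−2.03 and −2.28), and the strain differences of AN5738 and AN7028 in untreated cultures are 0.68 and 0.67.

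For comparison between genes, levels were also taken per transcript length, as the deposited RPKM (reads per kilobase of transcript, scaled to library size). In untreated THS30 the mean RPKM was 121 for AN2998, 48.3 for AN1198, 43.5 for AN0495, 17.96 for AN7028 and 15.9 for AN5738. The replicates of AN1198 and AN0495 overlapped, as did those of AN7028 and AN5738. In treated THS30 AN0495 came first with 141 RPKM, ahead of AN2998 with 56.0, AN7028 with 28.04, AN5738 with 23.3 and AN1198 with 12.9 RPKM. In treated TNJ92 AN0495 reached 307 RPKM, and AN2998 (37.7 RPKM) and AN7028 (37.3 RPKM) were no longer separated. Relative to all tested genes, AN0495 moved from above 73.6% of them to above 90.5% in THS30, and from 79.3% to 95% in TNJ92. AN1198 moved the other way, from above 75.9% of the genes to above 40.3% in THS30.

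Of the RPKM summed over the 5 genes, AN0495 made up 17.6% ± 0.832 in untreated and 53.4% ± 6.00 in treated THS30 (SD, n = 3). The corresponding shares in TNJ92 were 20.8% ± 1.39 and 73.0% ± 1.42. AN2998 went from 49.2% ± 0.804 to 21.8% ± 4.24 in THS30 and from 41.1% ± 1.26 to 8.97% ± 0.543 in TNJ92. In every treated library AN0495 was the largest component, and in every untreated library AN2998 was. The ratio of AN0495 to AN2998 was 0.338 to 0.382 in untreated THS30 and 1.78 to 3.26 in treated THS30, where replicate 3 had the lowest value. In TNJ92 the ratio was 0.457 to 0.544 untreated and 7.56 to 8.70 treated. For AN7028 to AN5738, both users of folate-bound carbon, the mean ratios were 1.13 in untreated and 1.20 in treated THS30. In TNJ92 they were 1.12 untreated and 1.46 treated. This ratio varied less than that of AN0495 to AN2998, but the treated TNJ92 libraries (1.45 to 1.48) lay above all others. For AN2998 to AN1198 the means were 2.54 and 4.41 in untreated and treated THS30, and 2.14 and 2.90 in TNJ92. The summed level of the 5 genes was 247 ± 12.9 RPKM in untreated and 261 ± 34.7 RPKM in treated THS30, where the replicates overlapped. In TNJ92 it was 295 ± 17.9 untreated and 421 ± 25.4 RPKM treated, without overlap. These shares, ratios and sums are descriptions and were not tested.

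**Figure D3:**
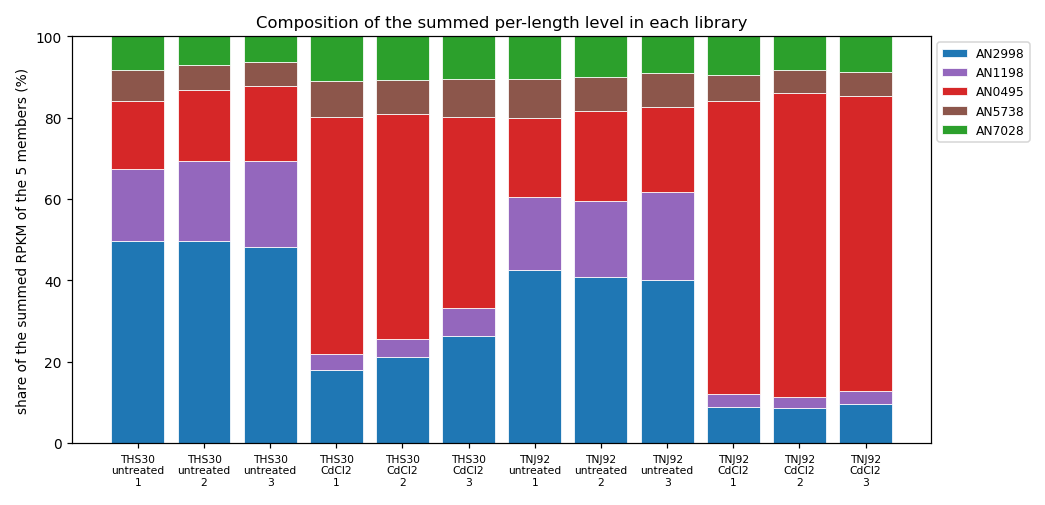
Share of each gene (%) in the RPKM summed over the 5 genes, stacked to 100% for each of the 12 libraries. AN0495 takes 16.8 to 18.4% in the untreated and 46.7 to 58.3% in the treated THS30 libraries, and 71.9 to 74.6% in the treated TNJ92 libraries.

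The 5 genes belong to the 12 distinct genes of the folate cycle list used in the study, which holds 7 others. These are metF (AN5883) and metA (AN8215), which encode methylenetetrahydrofolate reductases, AN3058, a glycine hydroxymethyltransferase gene that charges the folate pool from serine, AN1524, a methylenetetrahydrofolate dehydrogenase gene, AN6108, a dihydrofolate reductase ortholog that regenerates tetrahydrofolate, purH (AN4464), a bifunctional purine synthesis gene, and AN4776, an ortholog of *Saccharomyces cerevisiae* FSH3. In the CdCl2 response of THS30, 6 of the 12 genes were called higher and 5 lower, beside 22.5% and 21.5% of all genes tested, with a median log2 fold change of 0.03 beside 0.00 over all genes. In TNJ92, 1 of the 12 was called higher and 6 lower, beside 28.3% and 28.2% of all genes, with a median of −0.19 beside 0.00. The counts in THS30 rested on single libraries, since only 3 genes were called higher without THS30 untreated replicate 2 or treated replicate 2, and only 3 lower without treated replicate 1 or with library totals.

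Among the genes that interconvert or charge the folate pool, AN3058 fell in both strains, with log2 fold changes of −0.26 ± 0.09 in THS30 and −0.38 ± 0.09 in TNJ92. Its RefSeq gene also overlaps a neighbour. The reductase gene metA fell in THS30 (−0.32 ± 0.12) and in TNJ92 (−0.62 ± 0.11). The other reductase gene, metF, was not called in THS30 (−0.18 ± 0.08) and was called lower in TNJ92 (−0.22 ± 0.08). Neither state was stable, since metF was called in THS30 with DESeq2 (−0.20, adjusted p = 0.0358), without the filter and without THS30 treated replicate 3, and was not called in TNJ92 with library totals (−0.07, adjusted p = 0.479) or without any 1 of 4 TNJ92 libraries. Its responses did not differ detectably between the strains (−0.04 ± 0.11, adjusted p = 0.849). The dehydrogenase gene AN1524 was called higher in THS30 (0.24 ± 0.08) and was not called in TNJ92 (−0.12 ± 0.08). The values of AN6108 were 0.32 ± 0.11, called, in THS30 and −0.11 ± 0.10, not called, in TNJ92. AN4776 was at 0.35 ± 0.11, called, and 0.01 ± 0.11, not called. Of the genes that use folate-bound carbon, purH fell in THS30 (−0.66 ± 0.09) and in TNJ92 (−1.15 ± 0.09). The methionine synthase gene metH (AN4443), which is not on the list and takes the methyl group, also fell in both (−0.76 ± 0.11 and −0.98 ± 0.11). Most calls of this size among the 7 genes in THS30, those of metA, AN3058, AN4776, AN6108 and AN1524, were lost when 1 library or another was left out, and that of purH was not. Without THS30 treated replicate 3, the calls that changed on the list were those of AN1524 (0.18, adjusted p = 0.108) and metF (−0.24, adjusted p = 0.0291) in the THS30 response, AN6108 (0.23, adjusted p = 0.0942) and purH (−0.17, adjusted p = 0.109) between the treated strains, and AN1524 (−0.31, adjusted p = 0.0591) and AN4776 (−0.41, adjusted p = 0.0433) in the difference between the responses, besides those of AN7028.

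**Figure D4:**
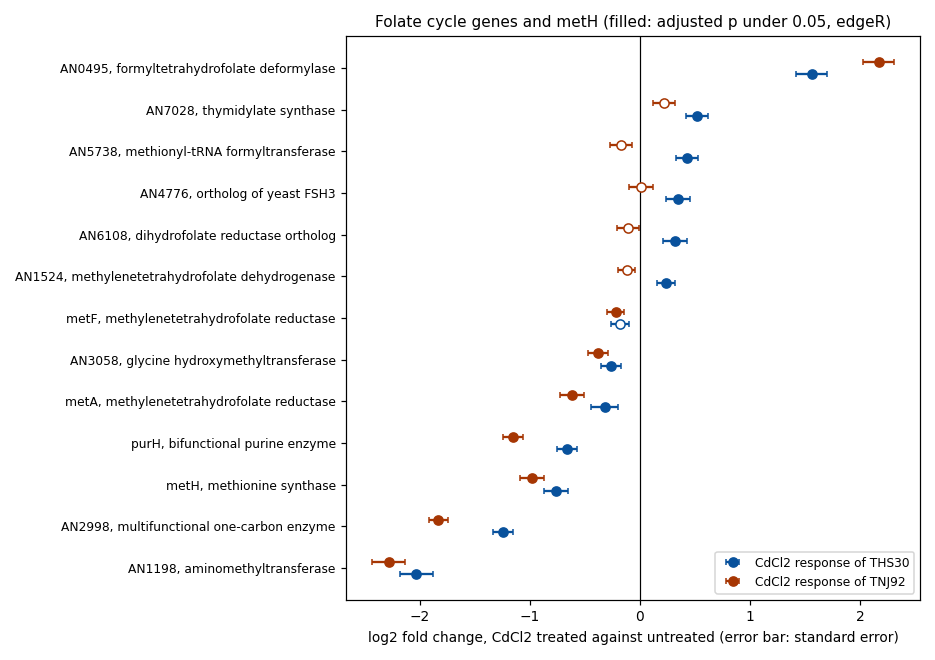
CdCl2 response (log2 fold change, bars are SE) of the 12 folate cycle genes and metH in THS30 (blue) and TNJ92 (brown); filled points had an adjusted p under 0.05. AN0495 stands apart at the upper end with 1.56 and 2.17, AN1198 (−2.03 and −2.28) and AN2998 at the lower end, and the other genes lie between −1.15 and 0.52.

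The strain comparison in untreated cultures had 8 of the 12 genes called higher in TNJ92 and 1 lower, beside 32% and 29.6% of all genes, with a median of 0.57 beside 0.03 over all genes. The genes called higher besides AN0495, AN5738 and AN7028 were AN4776 (1.02 ± 0.11), AN1524 (0.73 ± 0.08), metA (0.73 ± 0.11), AN6108 (0.71 ± 0.11) and purH (0.25 ± 0.09), and the one called lower was metF (−0.35 ± 0.08). The call of purH was lost without THS30 untreated replicate 2 or 3 or TNJ92 untreated replicate 1 (adjusted p = 0.0531, 0.0589 and 0.0833). Leaving out single libraries thus gave 7 to 8 genes called higher. In treated cultures 6 were called higher and 3 lower, beside 27.8% of all genes in each direction, with a median of 0.18 beside 0.00. With 1 library left out, 5 to 6 were called higher and 2 to 3 lower, and the calls lost were those of AN6108 and purH. The responses of the strains differed with a positive sign for 1 gene, AN0495, and a negative sign for 5, beside 13.2% and 13.6% of all genes, with a median of −0.32 beside 0.01. Only 3 were negative with library totals, and leaving out single libraries gave 0 to 1 positive and 3 to 6 negative. These comparisons share libraries: untreated THS30 enters both its CdCl2 response and the untreated strain comparison. For AN7028 the values were 0.52 in the former and 0.67 in the latter, for AN5738 0.43 and 0.68, and for AN0495 1.56 and 0.48. Summed over the 12 genes, the level was 902 ± 8.52 RPKM in untreated and 866 ± 45.0 RPKM in treated THS30, and 1084 ± 32.02 and 1062 ± 41.0 RPKM in TNJ92. On this scale the 2 groups of each strain overlapped and the strains did not. RPKM is scaled by library totals, with which the median CdCl2 response over all genes was 0.13 in THS30 and 0.15 in TNJ92. With TMM both medians were 0.00. The overlap within a strain was thus described for library totals only and was not examined with TMM.

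Across the 12 libraries the log2 CPM of AN0495 ran opposite to that of AN2998 (Pearson r = −0.966) and AN1198 (r = −0.876), and AN7028 ran with AN5738 (r = 0.879). AN5738 had little relation to AN1198 (r = −0.207). These coefficients describe 12 points that fall into 4 groups and share library scaling. The genes with the profile most like that of AN0495 were AN6110 (r = 0.997), AN3695 (r = 0.996) and AN3429 (r = 0.995). AN3429 rose by 2.77 ± 0.23 in THS30 and 4.05 ± 0.23 in TNJ92, more than AN0495 did, while AN6110 rose less (0.93 ± 0.09 and 1.22 ± 0.09). For AN2998 they were AN5525 (r = 0.991), AN2916 (r = 0.990) and AN6330 (r = 0.988). AN5525 is the putative aconitase gene acoA, and its responses were −2.34 ± 0.19 in THS30 and −2.93 ± 0.19 in TNJ92. For AN1198 they were AN0896, AN8793 and AN5591, with r from 0.988 to 0.994. For AN7028 they were AN11912, AN5866 and AN3375, with r from 0.979 to 0.984, and for AN5738 they were AN3134, AN4425 and AN10205, with r from 0.967 to 0.970. No other gene of the folate list was among them.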

How the data were processed

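RNA from lyophilized mycelium was sequenced as single reads from TruSeq libraries. Per the study's methods and the submitters' processing notes, reads were checked with FastQC and aligned with HISAT2 2.1.0 to the *A. nidulans* FGSC A4 genome of AspGD. The sources used here do not say how reads were counted, or whether by strand. The deposited table holds raw counts per gene, transcript lengths and RPKM values, which the authors computed with edgeR from those counts and library totals.

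Counts were tested with the quasi-likelihood test of edgeR 4.0.16 (R 4.3.3), with TMM scaling (factors 0.932 to 1.10), filterByExpr at a minimum count of 10, a robust glmQLFit over all 12 libraries (8 residual degrees of freedom) and Benjamini-Hochberg adjustment over 9070 genes. SEs were obtained as the size of the log2 fold change over √F. Correlations used log2 CPM with a prior count of 2. The code was tested on simulated counts. Alternatives were DESeq2 1.42.0, its size factors, library totals, no filter, only the groups compared, a replicate block and leaving out each library. Named genes were the 5 members, the folate cycle list, metH, atfA and the 3 genes best correlated with each member, and overlapping neighbours were added after their values were seen. The members and lists were chosen with earlier results of these data known. Sequences and a search of product names were not used here.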

Additional observations from a re-analysis of the deposited data

Results flagged for a closer look

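In 6 genes of the folate cycle list the CdCl2 response of TNJ92 differed from that of THS30 by the test of the difference itself (edgeR, adjusted p under 0.05). The log2 difference, TNJ92 response less THS30 response, was 0.61 for AN0495, −0.59 for AN2998 and −0.60 for AN5738. It was −0.49 for purH (AN4464), −0.43 for AN6108 and −0.36 for AN1524. Over all genes tested 13.2% were called with a positive and 13.6% with a negative difference, so that such a call was common. AN2998 and purH fell further in the mutant, and AN0495 rose further. AN5738, AN6108 and AN1524 were called higher with CdCl2 in THS30 and were not called in TNJ92, where their values were −0.17, −0.11 and −0.12. The call of AN0495 was lost without each of 4 libraries (adjusted p = 0.0566 to 0.0855). Those of AN6108 and AN1524 were lost with library totals (adjusted p = 0.0746 and 0.0545) and in most of the fits that left out 1 library. That of AN6108 was also lost without the filter on low counts (adjusted p = 0.0523). The groups held 3 libraries each, and single libraries were therefore not tested as outliers.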

How the results depend on the processing

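Of 25 results for the 5 genes, 21 stayed on their side of the threshold in every alternative, as did 436 of 445 values, and 0 called values changed sign. The uncalled strain differences of AN2998 (−0.06 to 0.02 untreated) and AN1198 (−0.14 to 0.17 treated) changed sign when single libraries were left out. With library totals, the median of all genes shifted to 0.13 in the THS30 and 0.15 in the TNJ92 response, only 3 folate list genes were called lower in the THS30 response and 3 with a negative difference between the responses, and 2 members (2 list genes) were called higher in the TNJ92 response. The labels tie the replicate numbers to no shared batch or day, and they were not taken as pairs. Of 18 correlations between same-numbered deviations, the 12 of replicates 1 and 3 were over 0.1 (0.102 to 0.319), and those of replicate 2 were not (−0.134 to 0.089). Correlations of replicate 1 with replicate 3 of another group were all negative (−0.109 to −0.313). Deviations from a mean of 3 libraries sum to 0, so that these correlations are not independent of each other. Whether the numbers are paired was not tested. The replicate block raised the calls in each comparison, for example from 2038 to 2196 genes higher in the THS30 response. The replicate block gave 2 members and 2 list genes called higher in TNJ92, AN7028 being added (0.22, adjusted p = 0.029), and called AN1198 higher in untreated TNJ92 (0.23, adjusted p = 0.0481). It changed no other call among the members. Leaving out 1 library moved the counts of list genes in the THS30 response to between 3 and 6 higher and 3 and 6 lower. Over all genes these counts moved to between 1600 and 2145 higher and 1523 and 2297 lower. In the TNJ92 response 1 to 2 members and 1 to 2 list genes were called higher. For the difference between the responses, 0 to 1 members and 0 to 1 list genes were called positive and 3 to 6 list genes negative. The cause of these changes was not tested. With 3 libraries per group, the SE of a log2 fold change of the members was 0.08 to 0.21.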
